A study of Mus musculus with 134 samples.

Results

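The 10 genes described here encode subunits of Polycomb repressive complex 1 (PRC1) in mouse embryonic stem cells (mESCs): Rnf2, Ring1, Cbx2, Cbx7, Pcgf1, Pcgf2, Pcgf6, Bmi1, Kdm2b and Rybp. They were chosen by name, with earlier results of these data known, from the 25209 genes counted in every bulk expression file. In the tables of single cells 8 of the 10 are listed, while Pcgf2 and Pcgf6 are listed in neither table. SET-seq tagments cytoplasmic mRNA/cDNA hybrids and antibody-bound chromatin in the same cells, so that expression and a histone mark are read together. The expression side was analysed here in 54 bulk libraries from 27 conditions, with 2 libraries per condition, and in 752 single cells collected about 12 h after mESCs were seeded with Wnt3a-coated beads.

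By label and methods all bulk libraries come from the E14 line (ES-E14TG2a, strain 129/Ola), an mESC line known for a deletion in Hprt, and the Hprt levels given below go against that label in part of the libraries. In vitro libraries were made from purified RNA with a changed temperature (16 or 37 °C, for 5, 10, 15 or 30 min), Tn5 amount (25, 50 or 100 ng/ul) or RNA amount (300 ng, 3 ng or 30 pg). SET-seq libraries without an antibody in the title used 10, 100, 1000 or 10000 cells. Co-assay libraries carry an H3K27me3 or H3K4me3 antibody and used 100, 1000 or 10000 cells, and the 6 with the H3K27me3 antibody are called wild type (WT) below. The knockout (KO) libraries carry the H3K27me3 antibody too and come from 2 clones, KO1 and KO2, in which Aebp2, a gene for an accessory subunit of PRC2, was targeted by CRISPR/Cas9; each clone gave 2 libraries, and the labels name no cell number for them. Ligation-based RNA-seq gave the last 2 libraries. Each clone is 1 line, and the cells were untreated by label.

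PRC1 is an E3 ligase that places ubiquitin on histone H2A, and a repressor of developmental genes in mESCs. Every PRC1 complex holds RING1A (gene Ring1) or RING1B (Rnf2) paired with 1 PCGF protein, and the PCGF protein sets which complex is formed. Canonical PRC1 carries a CBX protein that reads the H3K27me3 placed by PRC2, whereas variant PRC1 carries RYBP or its paralog YAF2 in place of the CBX protein and can be brought to CpG islands by KDM2B without that mark.

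The sequences of the study's guides are shown because they define the KO libraries against which the PRC1 genes were compared. The capitals mark the PAM, the 3 bases that follow each site in the genome.
Aebp2 sg#1: attcgctccatacatgtcgaTGG
Aebp2 sg#2: aacaggtgttcgtttgcttgTGG
On the NCBIM37 build, which is mm9, the 20 bases of sg#1 lie at chr6:140582382-140582401 and those of sg#2 at chr6:140586176-140586195, both on the plus strand and each at 1 site on chromosome 6. Both lie in coding exons of Aebp2, in 9 of its 14 annotated transcripts. The site of sg#1 falls wholly inside the exon, and that of sg#2 runs past the exon's end. Which guide gave which clone is not given in the sources used here.

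Library totals ran from 235040 to 21520982 counts, and levels are given as CPM (counts scaled to a common library total) after the ribosomal Rn45s counts were taken out. All 8 embryonic stem cell markers were above 0 in every WT and every KO library, and the 6 fibroblast markers summed to 0 to 11.9 CPM in KO and 0 to 10.2 CPM in WT, with Dcn and Lum at 0 in both. Hprt was at 0 to 1.29 CPM in the in vitro libraries made at 37 °C and at 0 to 2.14 CPM in the KO libraries, but at 291 to 485 CPM in the WT libraries, 273 to 445 CPM in the H3K4me3 co-assay, 66.2 to 478 CPM in SET-seq without an antibody and 181 to 184 CPM in the ligation libraries. The libraries of these last 4 kinds thus go against a line that lacks Hprt. The KO libraries were thus near 0, like the in vitro libraries, and the WT libraries were not, so knockout and cell stock cannot be told apart in that comparison. Aebp2 itself was at 15.7 and 15.0 CPM in KO1, at 49.7 and 30.2 CPM in KO2 and at 34.7 to 76.0 CPM in WT. It was lower in KO by 0.88 on the log2 scale (-0.88 ± 0.31 SE, adjusted p = 0.0253), with KO2 overlapping WT. Counts over the whole gene check a cut in 1 exon only in part.

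Among the PRC1 genes the median level per length over all conditions was highest for Cbx7, with Pcgf2 close to it, and lowest for Bmi1. Over the 27 condition means, median RPKM values (CPM per kilobase of exon) were 36.95 for Cbx7, the main CBX reader of mESCs, and 9.17 for Cbx2, another reader. Of the PCGF genes, Pcgf2 (MEL18, a partner in canonical PRC1) had a median of 36.5 RPKM, Pcgf1 of 32.1, Pcgf6 of 31.8 and Bmi1 (PCGF4, the other canonical partner) of 1.66. Bmi1 therefore ranked 10 of 10 by this median, far under its relative Pcgf2. The order changed with the kind of library, and Cbx7 had the highest median only in the ligation libraries (61.3 RPKM). Pcgf2 led with Tn5 amounts (70.6 against 60.0 RPKM for Cbx7), Pcgf1 at 16 °C (52.1 against 46.6) and Pcgf6 at 37 °C (58.6 against 38.2). In the ligation libraries Ring1 (4.80 RPKM) was below Bmi1 (7.12 RPKM).

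Between the paired E3 genes, Rnf2 stood at 11.4 RPKM and Ring1 at 7.07 RPKM over the conditions, but no single order held. By median Ring1 was above Rnf2 with Tn5 amounts (14.4 against 3.88 RPKM) and at 16 °C (11.3 against 5.52 RPKM). In the other kinds of library Ring1 was below Rnf2, as in ligation-based RNA-seq (4.80 against 53.5 RPKM). Kdm2b, whose CXXC domain binds unmethylated CpG islands, stood at 18.5 RPKM and Rybp at 11.5 RPKM. Neighbours in the order of conditions mostly overlapped: of 26 neighbouring pairs per gene, between 20 (Cbx7 and Rybp) and 26 (Cbx2) had overlapping library values. The top conditions differed between genes. Mean levels of Rnf2, Cbx2, Cbx7 and Bmi1 were highest in ligation-based RNA-seq, at 211, 72.5, 177 and 25.6 CPM, and Kdm2b was highest in KO1 and next in KO2, at 309 and 254 CPM.

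**Figure D1:**
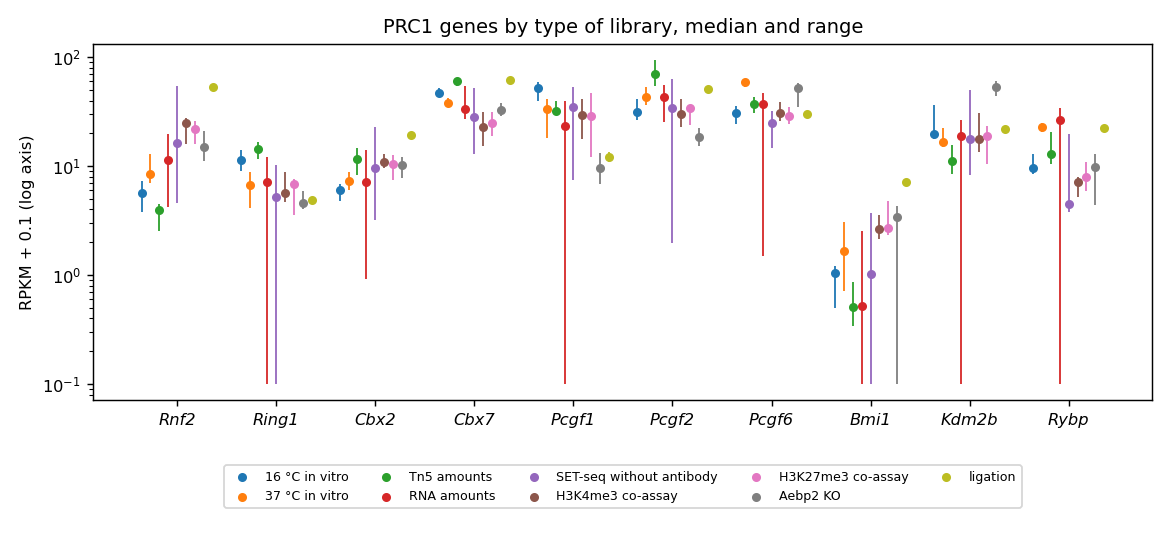
Levels of the 10 PRC1 genes in all 54 bulk libraries, grouped by kind of library, as RPKM + 0.1 on a log axis (Rn45s removed); points are medians and bars run from the lowest to the highest library. Bmi1 has the lowest median over the conditions, 1.66 RPKM against 36.95 RPKM for Cbx7, but Ring1 lies below it in the ligation libraries. Bars that reach the bottom mark libraries at 0.

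The genes occupy separate loci: for example Rnf2 lies at chr1:153316528-153348121 and Kdm2b at chr5:123320681-123439108 (mm9, both on the minus strand), and Pcgf1, the shortest at 874 exonic bases, at chr6:83028384-83030849 on the plus strand. No exon of the 10 genes overlaps an exon of another gene in the annotation of the count files, so no exonic bases are shared with an antisense neighbour. In bulk samples, fewer cells that express a gene and less RNA per cell cannot be told apart.

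The comparison of KO with WT asks which genes differ in cells in which Aebp2 was targeted. Its fit took libraries of the same clone as replicates and held no term for clone or WT cell number. The p-values therefore do not take the clone as the unit. Of the 10 PRC1 genes, 5 differed at an adjusted p below 0.05 in edgeR's quasi-likelihood test, against 47.0% of the 10495 genes tested. Kdm2b, Pcgf6 and Cbx7 were higher, as were 22.5% of all genes, and Pcgf1 and Pcgf2 were lower, as were 24.5%. The count of PRC1 genes was thus close to that among all genes. Their median log2 fold change was -0.06 against -0.02 over all genes.

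Kdm2b was at 296 and 322 CPM in KO1, at 271 and 238 CPM in KO2, and at 72.4 and 56.1 (100 cells), 99.9 and 101 (1000 cells) and 124 and 120 CPM (10000 cells) in WT. Every KO library was above every WT library. The difference was 1.64 ± 0.17 on the log2 scale (3.12-fold, adjusted p = 6.45e-07). In the WT libraries Kdm2b was higher with more cells, and against the 2 WT libraries of 10000 cells alone the difference was 1.34. It was 1.68 for KO1 alone and 1.51 for KO2 alone.

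The PCGF genes moved in different directions. Pcgf6, the PCGF subunit of the variant complex with MGA, MAX and E2F6, was at 129 and 112 CPM in KO1, at 118 and 77.4 CPM in KO2 and at 53.9 to 77.4 CPM (median 63.5) in WT, so only the lowest KO2 library reached the WT range. It was higher by 0.79 ± 0.17 (adjusted p = 0.000985). Pcgf2 was at 62.8 and 42.8 CPM in KO1, at 48.7 and 56.0 CPM in KO2 and at 67.8 to 103 CPM (median 96.8) in WT. No KO library reached the WT range, and the difference was -0.73 ± 0.17 (adjusted p = 0.00207). Pcgf1, the partner of KDM2B in variant PRC1, was at 6.87 and 9.62 CPM in KO1, at 5.96 and 11.6 CPM in KO2 and at 10.4 to 41.2 CPM (median 25.0) in WT. It was lower by 1.37 on the log2 scale (-1.37 ± 0.39, adjusted p = 0.00738), with 1 KO2 library inside the WT range. The KO values of Pcgf1 rest on 6 to 13 counts, and for KO2 alone the difference missed the threshold (-1.30, adjusted p = 0.0791). So Kdm2b was higher while its partner Pcgf1 was lower in the same libraries. Bmi1 was at 11.8 and 15.0 CPM in KO1, at 11.9 and 0 CPM in KO2 and at 8.10 to 16.9 CPM in WT, and its difference was within error (-0.16, 95% interval -1.31 to 0.99). The 0 allows up to 2.67 CPM in that library.

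Of the readers, Cbx7 was at 83.4 CPM in both KO1 libraries, at 104 and 109 CPM in KO2 and at 54.2 to 91.3 CPM (median 72.0) in WT. The KO2 libraries were above WT and the KO1 libraries inside its range. The difference of 0.46 ± 0.17 (adjusted p = 0.0303) was 0.17 for KO1 alone (adjusted p = 0.560) and 0.26 against the WT libraries of 10000 cells (adjusted p = 0.318), and it was -0.05 against the SET-seq libraries without an antibody (adjusted p = 0.894). It also missed the threshold without the first KO2 library (0.41, adjusted p = 0.0970), the second (0.32, adjusted p = 0.161) or the second WT library of 1000 cells (0.45, adjusted p = 0.0503). Cbx2, at 28.8 to 44.9 CPM in KO and 27.8 to 46.9 CPM in WT, differed by 0.05 (95% interval -0.39 to 0.49).

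The E3 genes did not pass the test. Rnf2 was at 69.7 and 82.3 CPM in KO1, at 43.7 and 47.2 CPM in KO2 and at 63.0 to 102 CPM (median 86.9) in WT. The KO2 libraries lay below WT and the KO1 libraries within it, and the difference over both clones was -0.46 ± 0.21 (adjusted p = 0.0764). For KO1 alone it was -0.22 (adjusted p = 0.513), against the WT libraries of 10000 cells -0.07 (adjusted p = 0.825) and against the SET-seq libraries without an antibody 0.21 (adjusted p = 0.623), with the sign turned. For KO2 alone it was -0.84 (adjusted p = 0.0213), and over both clones it passed without the second KO1 library (-0.63, adjusted p = 0.0330) or the first WT library of 10000 cells (-0.54, adjusted p = 0.0364). With no library left out, Rnf2 passed in edgeR with no filter on low counts (-0.57, adjusted p = 0.0218). It also passed with a mean fitted for each condition (-0.50, adjusted p = 0.00881). Ring1 ranged from 8.01 to 11.9 CPM in KO and from 7.11 to 15.4 CPM in WT (-0.31, 95% interval -1.07 to 0.46). Rybp ranged from 18.7 to 55.9 CPM in KO and from 25.3 to 47.6 CPM in WT (0.22, 95% interval -0.32 to 0.75). Against the SET-seq libraries without an antibody, the Rybp difference was 1.10 (adjusted p = 0.00232), and for KO2 alone it was -0.21 (adjusted p = 0.683).

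**Figure D2:**
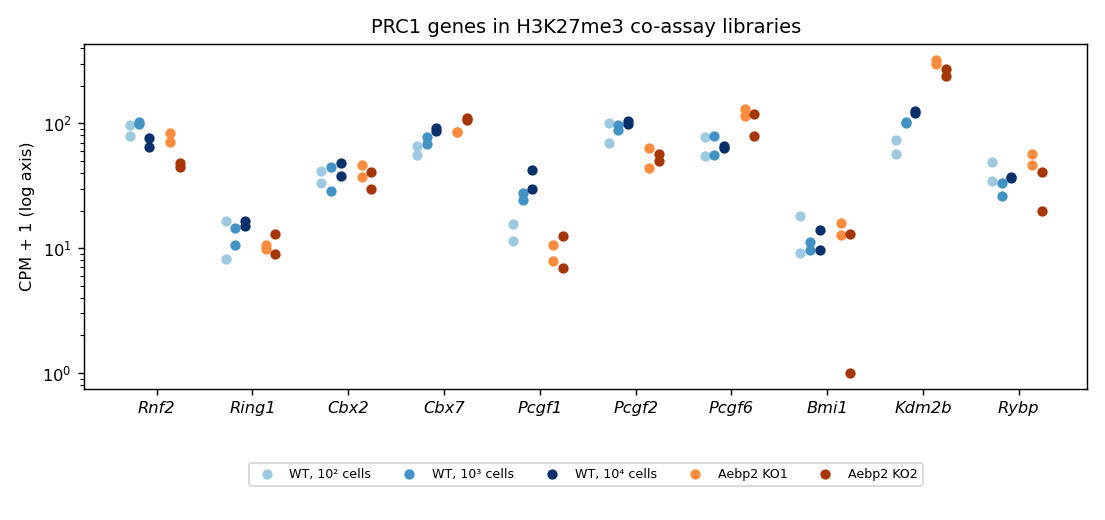
CPM + 1 on a log axis (Rn45s removed) of the PRC1 genes in the 4 KO and 6 WT libraries, with a point for each library, coloured by WT cell number or by KO clone. Kdm2b in KO (238 to 322 CPM) is above all WT libraries (56.1 to 124 CPM), and Pcgf2 in KO (42.8 to 62.8 CPM) is below them (67.8 to 103 CPM).

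Other measures moved with these groups. Rn45s took 48.8 to 56.7% of the counts in KO and 21.9 to 29.7% in WT. The embryonic stem cell markers summed to 3505 to 4059 CPM in KO and 5090 to 5571 CPM in WT. The 4 mesoderm genes (T, Mixl1, Eomes and Mesp1) summed to 36.4 to 45.7 CPM in KO and 9.59 to 22.6 CPM in WT, with 2 of 4 above 0 in every library of each group. Primitive endoderm genes summed to 6.23 to 10.9 CPM in KO and 0.66 to 10.3 CPM in WT. The KO files name featureCounts 2.0.1 and the WT files 2.0.0. Their part in the results was not tested.

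With a rule of the kind the study used, an unadjusted p below 0.05 and an absolute log2 fold change above 1, the PRC1 genes called were 2, Kdm2b and Pcgf1, against 27.7% of all genes. By the adjusted test, which 47.0% of all genes passed, 12 of 23 other PRC1 genes passed, 8 higher and 4 lower. The 3 with the largest changes were Scml2, which encodes a Polycomb protein with MBT repeats (-3.35 ± 0.76), Auts2, a partner of PCGF3 and PCGF5 complexes (2.703 ± 0.24), and Cbx8, another CBX reader (-2.68 ± 0.69). Of 7 genes for H2AK119 deubiquitinases and their cofactors, 6 passed the same test, 4 higher and 2 lower. Asxl3 was higher by 3.10 ± 0.68 and Asxl1 by 1.97 ± 0.12, both genes for cofactors of the deubiquitinase BAP1.

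Between the clones, 8 PRC1 genes could be tested and 0 passed (edgeR), against 10.0% of 8551 genes. At an unadjusted p below 0.05 the genes were Rnf2 (0.64 ± 0.26 higher in KO1, adjusted p = 0.118), Rybp (0.71 ± 0.33, adjusted p = 0.179) and Cbx7 (-0.46 ± 0.22, adjusted p = 0.193). Kdm2b differed by 0.18 with a 95% interval of -0.13 to 0.50, and Pcgf2 by -0.08 with an interval of -0.65 to 0.48. Ring1 and Pcgf1 were left out as too low. Without the first KO2 library, Rybp (1.30, adjusted p = 0.0123) and Bmi1 (adjusted p = 0.0150) passed, and Bmi1 then rests on the KO2 library at 0. Aebp2 was lower in KO1 than in KO2 (-1.46 ± 0.39, adjusted p = 0.0130).

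All 10 PRC1 genes differed between tagmentation temperatures in the libraries made from purified RNA, where 63.4% of 11788 genes passed. Of the 10 genes, 6 were higher at 37 °C (32.0% of all genes were) and 4 were lower (31.4%). Rybp ran from 36.8 to 55.9 CPM (median 41.9) in 8 libraries at 16 °C and from 89.0 to 107 CPM (median 99.8) in 8 at 37 °C, a difference of 1.26 ± 0.07 (adjusted p = 1.60e-14). Pcgf6 ran from 53.8 to 77.6 CPM (median 68.1) at 16 °C and from 117 to 138 CPM (median 129) at 37 °C, a difference of 0.99 ± 0.07 (adjusted p = 6.43e-13). The groups did not overlap for either gene.

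The E3 genes differed in opposite directions between the temperatures. Rnf2 was at 14.5 to 28.6 CPM at 16 °C and 27.5 to 50.4 CPM at 37 °C (0.69 ± 0.12), with slight overlap, and Ring1 was at 18.2 to 28.4 CPM at 16 °C and 8.26 to 17.9 CPM at 37 °C (-0.73 ± 0.11), with none. Pcgf1 was lower (-0.64 ± 0.11, from 34.8 to 51.9 CPM at 16 °C to 15.9 to 35.8 CPM at 37 °C), whereas Bmi1 (0.85 ± 0.25), Pcgf2 (0.44 ± 0.08) and Cbx2 (0.35 ± 0.10) were higher. Cbx7 (-0.28 ± 0.06) and Kdm2b (-0.27 ± 0.08) were lower by a small step. In the 4 libraries of 5 min alone, 5 PRC1 genes passed, against 30.8% of 10927 genes. There Rnf2 (0.64, adjusted p = 0.0637), Ring1 (-0.65, adjusted p = 0.158), Bmi1, Cbx2 and Cbx7 kept their direction and lost their call.

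**Figure D3:**
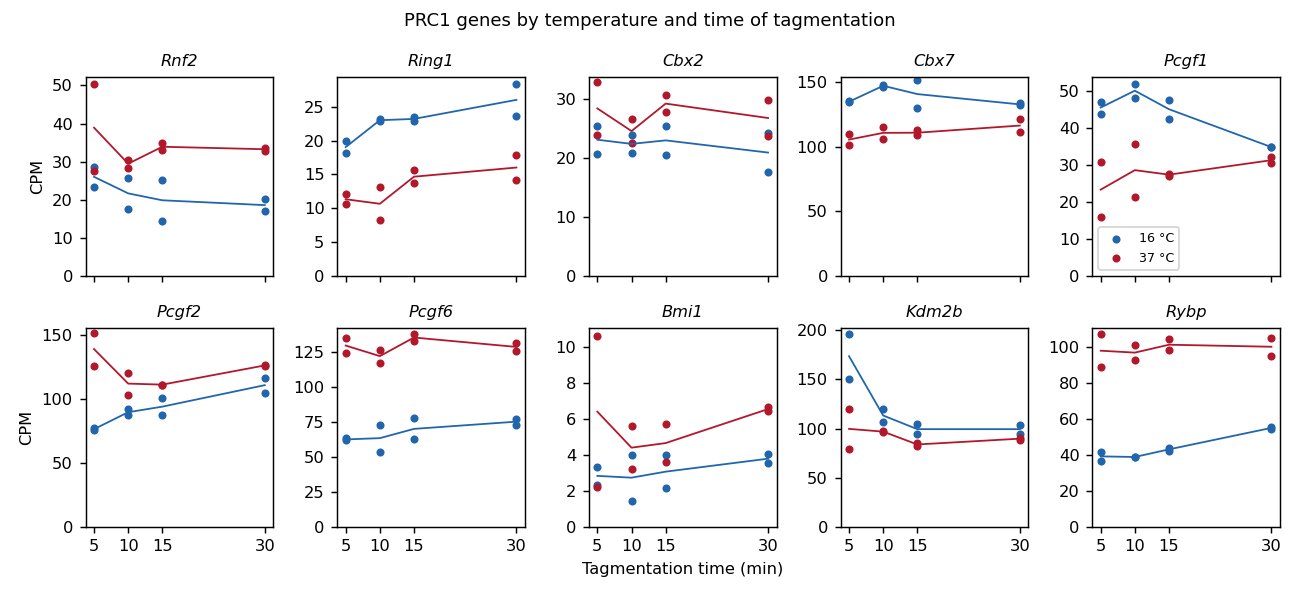
CPM (Rn45s removed) of the PRC1 genes in the 16 in vitro libraries by tagmentation time in min, with 16 °C in blue, 37 °C in red, a point for each library and lines through the means of the 2 libraries. Rybp (89.0 to 107 CPM at 37 °C, 36.8 to 55.9 CPM at 16 °C) and Pcgf6 are separated by temperature at every time.

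Rn45s took 11.8 to 25.1% of counts at 16 °C and 33.0 to 40.7% at 37 °C. Library totals ran from 2258725 to 15221800 counts at 16 °C and from 1178008 to 10031843 at 37 °C. The part of Rn45s and depth in the temperature results was not tested. Of other PRC1 genes, 12 of 22 tested passed, 6 in each direction: Csnk2b (-1.11 ± 0.16) and Skp1a (1.08 ± 0.08), subunits shared with other complexes, and Mga (0.87 ± 0.08), the partner of PCGF6, moved most. Of the deubiquitinase genes 5 of 7 passed, 3 higher and 2 lower, with Bap1 at -1.30 ± 0.09 and Mysm1 at 0.86 ± 0.10.

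Fewer genes passed for time. Between 30 and 5 min, 0 of the 10 passed (edgeR), against 4.32% of 10011 genes. Kdm2b was lowest in adjusted p (-0.47 ± 0.14, adjusted p = 0.0631), followed by Ring1 (0.56 ± 0.18, adjusted p = 0.0847). Kdm2b passed without the first (-0.47, adjusted p = 0.0463) or the second 37 °C library of 5 min (-0.61, adjusted p = 0.0228) or the second of 30 min (-0.54, adjusted p = 0.0370), and Pcgf2 passed without the first 37 °C library of 5 min (0.45, adjusted p = 0.0225). Csnk2b was the only one of 21 other PRC1 genes to pass (-1.33 ± 0.26), and of 6 deubiquitinase genes Bap1 (-0.59 ± 0.14) and Usp16 (-0.44 ± 0.12) passed. Between 100 and 25 ng/ul of Tn5, 0 of the 10 and 0 of 12838 genes (0%) passed in edgeR, with 42 genes at an unadjusted p below 0.05 and 0 by DESeq2. The intervals are wide with 2 libraries each: for Rybp the difference was 0.40 with a 95% interval of -0.48 to 1.27. Same-numbered Tn5 libraries deviated together (r = 0.86), and this fit did not pair them. With the replicate number as a block, 1 gene and 0 of the 10 passed.

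With less RNA the PRC1 genes differed in both directions. Between 3 and 300 ng, 8 of the 10 passed, against 52.6% of 11087 genes, and 4 were higher (26.0% of all genes) and 4 lower (26.6%). Bmi1 was at 6.63 and 8.76 CPM with 3 ng and at 1.36 and 1.63 CPM with 300 ng (2.23 ± 0.50, adjusted p = 0.000407, 4.68-fold). Rnf2 was at 40.8 and 48.9 CPM with 3 ng and at 19.7 and 16.3 CPM with 300 ng (1.24 ± 0.25, adjusted p = 0.000104). In both genes the libraries of 3 ng lay above those of 300 ng. Rn45s took 78.5 and 84.6% of the counts with 3 ng and 18.2 and 17.4% with 300 ng, and its part in these results was not tested.

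Rybp (0.61 ± 0.19) and Kdm2b (0.52 ± 0.19) were higher with 3 ng too. Cbx7 was at 83.7 and 85.8 CPM with 3 ng and at 154 and 157 CPM with 300 ng (-0.98 ± 0.18, adjusted p = 4.12e-05), and Pcgf2 was at 72.0 and 91.8 against 153 and 156 CPM (-1.01 ± 0.19, adjusted p = 3.54e-05). Pcgf1 (-0.81 ± 0.26) and Ring1 (-0.76 ± 0.29) were lower as well. Leaving out the second library of 300 ng left 4 of the 10 past the test, against 4206 of 11207 genes. Leaving out the first or the second library of 3 ng left 5, against 4693 of 11796 and 4506 of 11762 genes. Kdm2b, Rybp, Pcgf1 and Ring1 were the genes whose call was lost in at least 1 of these, with adjusted p up to 0.183, 0.142, 0.0990 and 0.198. Of other PRC1 genes 10 of 22 passed, 6 higher and 4 lower, among them Skp1a (2.44 ± 0.22) and Phc2 (-1.65 ± 0.28). Of deubiquitinase genes 5 of 7 passed, 3 higher and 2 lower, among them Asxl3 (1.32 ± 0.47) and Bap1 (-1.21 ± 0.24). With 30 pg, Ring1, Pcgf1 and Bmi1 were at 0 in both libraries, and Kdm2b and Rybp were at 141 and 150 CPM in 1 library and at 0 in the other. A count of 0 allows up to 1.09 CPM in the first and 9.28 CPM in the second of these libraries.

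Comparing SET-seq of cells with tagmentation of purified RNA asks how the gene levels differ by preparation. Of the 10 PRC1 genes, 3 passed and all 3 were lower, against 41.3% of 11616 genes, of which 19.7% were higher and 21.6% lower. Rybp was at 16.1 to 20.5 CPM in the 6 libraries of 100, 1000 and 10000 cells without an antibody and at 74.8 to 107 CPM in 4 in vitro libraries, 2 labelled 37 °C for 5 min and 2 labelled 300 ng RNA, whose labels give no temperature or time. The groups are well apart, with a difference of -2.38 ± 0.20 (adjusted p = 2.91e-07). Pcgf6 (-1.09 ± 0.24, adjusted p = 0.00169) and Ring1 (-0.87 ± 0.32, adjusted p = 0.0392) were lower too, and Rnf2 was at 0.95 ± 0.40 (adjusted p = 0.0638). Ring1 lost its call without either library of 10000 cells, the first of 100 or of 1000 cells or either of 300 ng RNA (-0.63 to -0.88, adjusted p up to 0.197), and Rnf2 passed without the first library of 10000 cells (1.23, adjusted p = 0.00837) or the second of 37 °C for 5 min (1.25, adjusted p = 0.0225). Rnf2 varied among the SET-seq libraries, from 17.8 CPM with 10000 cells to 87.0 CPM with 100 cells. Of other PRC1 genes 7 of 22 passed, 2 higher and 5 lower, with Auts2 (-2.58 ± 0.31), Bcor (-2.27 ± 0.27), the corepressor of PCGF1 complexes, and Csnk2b (2.16 ± 0.40) ahead. Of deubiquitinase genes, Asxl2 (-1.27 ± 0.26) and Bap1 (0.61 ± 0.23) passed.

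Ligation-based RNA-seq was compared with the same 4 in vitro libraries. There 6 of the 10 passed, 3 higher and 3 lower, against 61.0% of 13260 genes, of which 33.3% were higher and 27.7% lower. Rnf2 was at 219 and 203 CPM in the ligation libraries and at 16.3 to 50.4 CPM in the in vitro libraries (2.83 ± 0.35, adjusted p = 0.000187, 7.12-fold). Bmi1 was at 26.5 and 24.7 CPM against 1.36 to 10.6 CPM (3.32 ± 0.48, adjusted p = 0.000411). These 2 genes were the highest of the 10 by fold. Cbx2 was higher (1.05 ± 0.22), and Pcgf1 (-1.71 ± 0.31), Ring1 (-1.23 ± 0.33) and Pcgf6 (-0.85 ± 0.25) were lower. With either ligation library left out, Ring1 (adjusted p up to 0.124) and Pcgf6 (adjusted p up to 0.118) lost their calls. Among all genes the median log2 difference was 0.15. Of the other PRC1 genes 12 of 23 passed, 9 higher and 3 lower, with Scml2 (5.12 ± 0.51), Csnk2b (2.30 ± 0.25) and Pcgf3 (2.17 ± 0.28) ahead, and of deubiquitinase genes 3 of 7 passed, all higher, with Bap1 at 1.15 ± 0.25 and Asxl1 at 1.00 ± 0.16. The in vitro libraries lack Hprt RNA and the ligation and SET-seq libraries hold it, so method and cell stock cannot be told apart in these 2 comparisons.

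Co-assay libraries were compared with SET-seq libraries that name no antibody in the title, at the same cell numbers. By the methods, the RNA was taken off before an antibody was added to the nuclei. The comparison is thus between sets of libraries, and an effect of the antibody was not tested. Between the 12 co-assay libraries and the 6 without an antibody, 6 of the 10 passed, 3 higher and 3 lower, against 41.2% of 11709 genes, of which 20.5% were higher and 20.7% lower. Bmi1 (1.11 ± 0.38, adjusted p = 0.0219), Rnf2 (0.77 ± 0.15, adjusted p = 0.000171) and Rybp (0.76 ± 0.16, adjusted p = 0.000367) were higher in the co-assay. Cbx7 (-0.52 ± 0.15), Pcgf1 (-0.50 ± 0.19) and Pcgf2 (-0.50 ± 0.14) were lower. Hprt was higher in the co-assay as well (0.83 ± 0.14, adjusted p = 2.17e-05 in edgeR). In libraries of 10000 cells Hprt was at 273 to 314 CPM with an antibody and at 66.2 and 125 CPM without. The part of cell stock in this comparison was not tested. Pcgf1 lost its call in 13 of 25 alternatives, with the first library of 100 cells without an antibody left out among them (-0.38, adjusted p = 0.166), and Bmi1 in 4, each without 1 library lacking an antibody (adjusted p up to 0.0834). Pcgf6, at 0.33 ± 0.14 (adjusted p = 0.0649), passed in 5 alternatives. Rybp ran from 22.5 to 47.6 CPM with an antibody and from 16.1 to 20.5 CPM without one, with no overlap at these cell numbers. The gap is narrow, and the lowest Rybp count without an antibody was 4. With 10 cells, which are not part of this comparison, Rybp reached 85.0 CPM without an antibody.

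Kdm2b differed little on average (0.00, 95% interval -0.41 to 0.40), but in the libraries of 10000 cells it was at 124, 120, 132 and 164 CPM with an antibody and at 43.8 and 69.3 CPM without (1.07, adjusted p = 0.000103). Of other PRC1 genes 9 of 23 passed, 6 higher and 3 lower, with Csnk2b (-1.68 ± 0.23), Scml2 (1.65 ± 0.43) and Skp1a (1.39 ± 0.13) ahead, and 3 of 7 deubiquitinase genes passed, all higher, with Mysm1 at 0.91 ± 0.20 and Usp16 at 0.49 ± 0.16. The H3K27me3 and the H3K4me3 co-assay gave 0 of the 10 and 0 of 11616 genes (0%) past the test in edgeR, with 362 genes at an unadjusted p below 0.05 and 0 by DESeq2. The PRC1 differences lay between -0.24 (Pcgf1, 95% interval -0.65 to 0.18) and 0.20 (Bmi1, 95% interval -0.43 to 0.82).

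**Figure D4:**
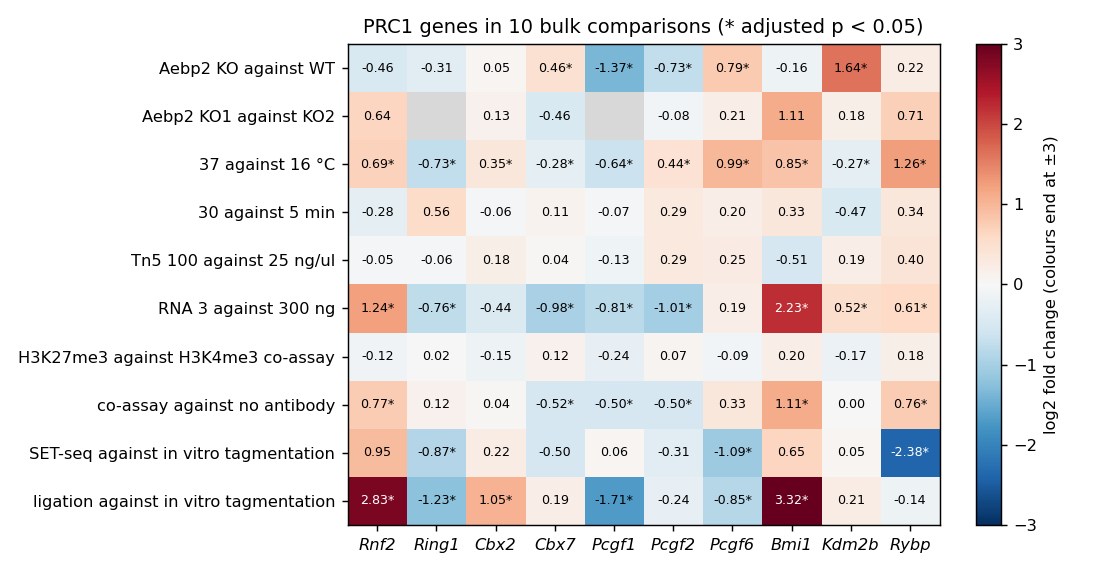
Log2 fold change of each PRC1 gene in the 10 bulk comparisons, written in each cell and coloured from blue (lower) to red (higher), with an asterisk where the adjusted p was below 0.05 and grey where a gene was not tested. The 37 against 16 °C comparison has an asterisk for all 10 genes, and the Tn5 and H3K27me3 against H3K4me3 comparisons have none.

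Pattern likeness was measured as Pearson's r of log2(CPM + 1) over the 27 condition means, among 8747 genes with a mean of at least 10 CPM. The conditions share method and depth, so these values describe the libraries and carry no test. Ring1 and Pcgf1 were most alike among the PRC1 genes (r = 0.87), followed by Cbx7 and Pcgf2 (r = 0.65). The nearest gene over all was Nupl1 for Rnf2 (r = 0.96), Slc20a1 for Cbx2 (r = 0.82), Hspg2 for Cbx7 (r = 0.94) and Azin2 for Pcgf1 (r = 0.94). It was Sh3bp1 for Pcgf2 (r = 0.88), Hmgn5 for Pcgf6 (r = 0.91), Pank3 for Bmi1 (r = 0.94), Plekha2 for Kdm2b (r = 0.87) and Htatsf1 for Rybp (r = 0.94).

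Single daughter cells next to a Wnt3a bead (proximal) or away from it (distal) were compared over experiments. Of 752 cells, 545 had more than 1000 and fewer than 5000 genes, 278 of them proximal and 267 distal. The 96 well barcodes are reused, 80 of them in more than 1 experiment, and 0 were repeated within an experiment. Values are reads without molecular identifiers, so a few amplified molecules can hold most of them: the 5 highest cells held 97.6% of the Rnf2 reads and 65.9% of the Cbx7 reads.

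Reads were summed per position in the 14 experiments with at least 3 passing cells at each position. Of 8 PRC1 genes, 0 passed, as did 0 of 13062 genes (0%) in edgeR; 1602 genes had an unadjusted p below 0.05, limma called 1 gene and DESeq2 76, none of them PRC1 genes of the 10. Kdm2b was at 0.13 to 102 CPM (median 3.24) in the proximal sums and at 0 to 124 CPM (median 3.08) in the distal ones, and proximal was above distal in 6 of 14 experiments (-0.45 ± 0.79, adjusted p = 0.871). Rnf2 was higher in the distal sum in 9 experiments and in the proximal one in 2 (-1.82 ± 1.17, adjusted p = 0.543). Rybp was higher in distal sums in 9 and in proximal ones in 3 (-0.89 ± 0.87). These intervals reach several log2 units, so differences of that size were not detectable at this depth. The difference between the antibodies in this contrast was past the test for 0 of the 8 and 0 of 13062 genes (0%) in edgeR, with 1201 at an unadjusted p below 0.05. Bmi1 was the 1 PRC1 gene among these (adjusted p = 0.460), and 1 cell held 1438 of its 1807 reads.

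The study grouped the passing cells into clusters named Mix (291 cells), Proxi (133) and Dista (121). They were formed from the expression of these cells, so the shares below are a description. At least 1 Rybp read was found in 31.3% of Mix cells (95% Wilson interval 26.2 to 36.8%), 21.1% of Proxi (15.0 to 28.7%) and 22.3% of Dista cells (15.8 to 30.5%). Kdm2b was found in 15.5% (11.8 to 20.1%), 30.1% (22.9 to 38.3%) and 27.3% (20.1 to 35.8%), and Cbx7 in 12.7% (9.37 to 17.0%), 22.6% (16.3 to 30.4%) and 28.9% (21.6 to 37.6%). These shares pool antibodies and experiments that the clusters hold unequally: 208 of 291 Mix cells but 58 of 133 Proxi and 69 of 121 Dista cells came from H3K27me3 experiments. Within H3K27me3, Kdm2b was found in 13.0% of Mix, 13.8% of Proxi and 24.6% of Dista cells, and within H3K4me3 in 21.7%, 42.7% and 30.8%. Cbx7 was found in 15.9%, 32.8% and 33.3% within H3K27me3 and in 4.82%, 14.7% and 23.1% within H3K4me3. Over all passing cells, Cbx7 had reads in 10 of 16 experiments. Of the 14 experiments summed by position, 5 had 0 Cbx7 reads: H3K27me3 experiments 8, 9 and 10 and H3K4me3 experiments 3 and 4. Kdm2b was at 0 to 0.82 CPM in the sums of H3K27me3 experiments 8, 9 and 10. Median reads per cell were 177043 in Mix, 115675 in Proxi and 80430 in Dista.

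Rnf2 was found in 4.81% of Mix, 12.8% of Proxi and 13.2% of Dista cells. Ring1, Cbx2, Pcgf1 and Bmi1 were each found in 1.28 to 3.12% of all passing cells, too few to order the clusters. With every cell thinned to 20000 reads, which leaves out 10 Mix, 10 Proxi and 25 Dista cells, Cbx7 was found in 1.42%, 8.94% and 14.6% of cells and Kdm2b in 4.27%, 10.6% and 14.6%. Rybp then stood at 8.19%, 8.94% and 9.38%. The thinned shares pool antibodies and experiments as well, and the part of that mix in the order of the clusters was not tested. The intervals cover counting error only.

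**Figure D5:**
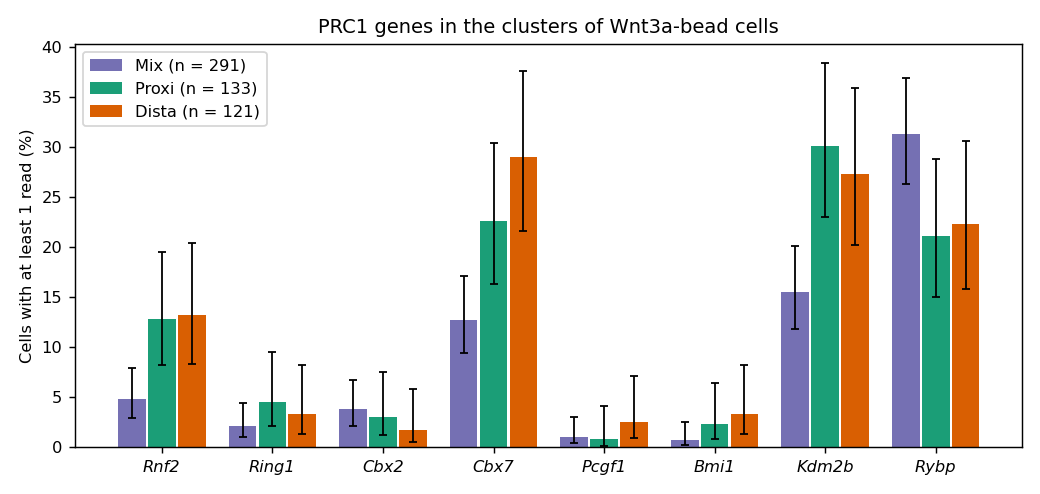
Share of cells in percent with at least 1 read of each PRC1 gene listed in both cell tables, for the Mix (291 cells), Proxi (133) and Dista (121) clusters, with 95% Wilson intervals as bars. Kdm2b and Cbx7 were found in 15.5% and 12.7% of Mix cells and in 22.6 to 30.1% of Proxi and Dista cells. The shares pool antibodies and experiments that the clusters hold unequally.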

How the data were processed

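Per the file headers and the methods, the authors trimmed bulk reads with Trim Galore 0.6.4, aligned them with STAR 2.5.4b to mm9 and counted them with featureCounts (2.0.0 in 50 files, 2.0.1 in the 4 KO files); the deposited values are raw counts per gene. For cells, the authors ran zUMIs and deposited unnormalized counts of reads, not molecules. Rn45s was removed here, and genes passing edgeR's filterByExpr were fitted (edgeR 4.0.16, TMM, quasi-likelihood, Benjamini-Hochberg over all genes tested, adjusted p below 0.05). SE is the absolute log2 fold change over the root of F. limma 3.58.1 and DESeq2 1.42.0 in R 4.3.3 were alternatives. Cells with more than 1000 and fewer than 5000 genes were summed per experiment and position, with at least 3 cells a sum and the experiment as a block. Depth was 235040 to 21520982 counts.

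The scripts were tested on simulated data. Groups come from the labels, and cluster and position names from the study's list of cells. Where nothing states separate cultures, p-values measure only the spread between libraries. Same-numbered libraries deviated together for Tn5 (r = 0.86) and RNA amount (r = 0.22), with 1 value each. In the other bulk comparisons at most 40% of such pairs correlated by over 0.1. Their r ran from -0.10 to 0.56 for temperature, from -0.42 to 0.27 for SET-seq and from -0.33 to 0.24 for ligation. The main bulk fits were not paired, and the replicate number as a block was an alternative. The genes and lists were chosen with earlier results of these data known. Named were all 10 genes, per comparison the 3 largest called changes of the other PRC1 genes and up to 2 of the deubiquitinase genes, Aebp2, Hprt, and the gene most alike to each of the 10. Some genes that this rule names are not reported here. The genomic libraries were not analysed here.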

Additional observations from a re-analysis of the deposited data

Results flagged for a closer look

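Dixon's test for 1 library far from the others was run on 60 groups of values, of which chance alone gives about 5%, and 3 stood out. Rnf2 in the 37 °C in vitro libraries reached 50.4 CPM in the second library of 5 min, and the next of the 8 was at 34.8 CPM. Kdm2b in the same group reached 120 CPM in the first library of 5 min, with the next at 97.7 CPM. Ring1 in the SET-seq libraries of 100 to 10000 cells without an antibody reached 20.5 CPM in the second library of 1000 cells, with the next of the 6 at 11.5 CPM. That library holds 4 Ring1 counts.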

How the results depend on the processing

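Counts of PRC1 genes past the test moved by over 1.5 times in 3 settings besides single libraries: 2 instead of 5 for KO against WT with an unadjusted p below 0.05 and an absolute log2 fold change above 1, 5 instead of 10 for 37 against 16 °C with only the 5 min libraries, and 1 instead of 0 for 30 against 5 min with no filter on low counts. Over all genes these 3 settings gave 2911 of 10495, 3365 of 10927 and 735 of 18728. Leaving out 1 library at a time gave 4 to 6 for the knockout, 0 to 2 between the clones (2 without the first KO2 library), 10 to 10 for temperature, 0 to 2 for time (1 without the second 37 °C library of 30 min or of 5 min, 2 without the first of 5 min), 0 to 0 for Tn5, 4 to 8 for RNA amount, 0 to 0 for the antibodies, 4 to 6 for the co-assay, 2 to 4 for SET-seq, 4 to 6 for ligation and 0 to 0 for the cells. Over all genes these fits called 4212 to 5066 of 9243 to 11443 for the knockout. The range was 181 to 1361 of 9132 to 9230 between the clones and 7049 to 7534 of 11807 to 12094 for temperature. For time it was 3 to 1330 of 10051 to 10345, and for RNA amount 4206 to 5596 of 11207 to 11796. The co-assay gave 4180 to 5095 of 11619 to 12040 and SET-seq 3840 to 4889 of 11432 to 11953. Ligation gave 4319 to 9246 of 12079 to 13547, and Tn5, the antibodies and the cells 0. The direction turned in 2 values that passed the test in 1 of both settings: Cbx7 in KO was at -0.052 (adjusted p = 0.894) with the SET-seq libraries without an antibody as WT, and Kdm2b in the co-assay was at 1.07 (adjusted p = 0.000103) with 10000 cells only. Of 1692 values of single genes under alternatives, 1617 either kept direction and side of the threshold (1532) or turned in sign while past the threshold in neither setting (85), 52 lost their call and 21 gained one; the causes were not tested.

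With the replicate number as a block, the counts of PRC1 genes were 5 for the knockout, 0 between the clones, 10 for temperature, 0 for time, 0 for Tn5, 8 for RNA amount, 0 for the antibodies, 6 for the co-assay, 3 for SET-seq and 6 for ligation, so the block changed none of these counts. Of all genes, 4803 of 10869 passed with the block for the knockout, 639 of 8551 between the clones and 7479 of 11973 for temperature. It was 194 of 10269 for time, 1 of 12838 for Tn5, 6288 of 11087 for RNA amount and 0 of 11616 for the antibodies. It was 4688 of 12054 for the co-assay, 4647 of 12027 for SET-seq and 6900 of 13260 for ligation. Same-numbered libraries correlated by -0.09 to 0.03 for the knockout and by -0.10 between the clones, and by 0.86 for Tn5 and 0.22 for RNA amount, with 1 value each. For temperature the correlations ran from -0.10 to 0.56. Over all genes the block gave 194 calls instead of 432 for time and 1 instead of 0 for Tn5. Between the clones, the block gave 639 calls, crossed numbers 1431 and neither 858, with 0 PRC1 genes called in each. Over all genes, no filter gave 735 calls for time, DESeq2 gave 359 between the clones and 76 for the cells, limma 1 for the cells, and the cells without the replicate block 450 instead of 0, again with 0 PRC1 genes. The rule with an unadjusted p below 0.05 and an absolute log2 fold change above 1 gave 2911 calls instead of 4935 for the knockout and 531 instead of 858 between the clones. The crossed block, the sets without the shallowest SET-seq libraries and the 10, 15 and 30 min libraries were chosen after seeing the data.

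Shallow libraries set the limits: values at 0 in the 30 pg libraries and in 1 library of 10 cells (235040 counts) do not show absence, and the Bmi1 levels rest on 0 to 100 counts in the SET-seq and co-assay libraries. Every count above depends on 2 libraries per condition.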

Other observations

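The SET-seq libraries of 10 cells entered no comparison. Their totals were 4618138 and 235040 counts. In the first and second library, Rnf2 stood at 71.5 and 212 CPM, Kdm2b at 86.4 and 266 CPM and Rybp at 36.3 and 85.0 CPM. Pcgf2 stood at 96.9 and 5.31 CPM, and Ring1 and Bmi1 were at 13.0 and 1.89 CPM in the first and at 0 in the second, where a count of 0 allows up to 15.9 CPM. The second library rests on 1 count for Pcgf2, and its zeros do not show a difference in Ring1 or Bmi1.

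The libraries of 50 ng/ul Tn5 were described only in the levels. Their Rnf2 was at 9.60 and 17.2 CPM, the lowest mean of the 27 conditions, and their Pcgf2 at 194 and 266 CPM, the highest.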
